A study of Mus musculus with 15 samples.

Results

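The members described here are the very short CDR3 loops of the T cell receptor (TCR) alpha chain, those of 8 residues or fewer. They were chosen by the length of the listed peptide alone, and no read count entered the choice. They number 4908 of the 92219 distinct CDR3 peptides listed in 15 libraries (5.32%), and they took 275950 of 10418828 reads. By length, 12 loops had 2 residues, 35 had 3, 117 had 4, 163 had 5, 530 had 6, 1032 had 7 and 3019 had 8. A library is the TCR alpha sequencing of RNA from 1 sorted sample of CD8 T cells, and a read count is the number of sequence reads with a given CDR3.

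All mice were C57BL/6 males and carried TCRbtg, a transgene for 1 TCR beta chain. The beta chain was thus fixed in every group, and the alpha chain was left to vary. The 5 Tumour libraries came from CD8b+ CD4neg cells of prostate tumours of TCRbtg TRAMP+/- males aged 27 weeks. TRAMP is a transgene that gives prostate cancer in males. The 5 MP (memory-phenotype) libraries held CD8b+ CD4neg CD44hi CD122+ cells, and the 5 Naive libraries held CD8b+ CD4neg CD44lo CD122neg cells. Both came from spleen and lymph nodes, pooled, of TCRbtg males aged 9 weeks. Tumour libraries thus differ from the others in tissue, age, genotype and sort gate, and the parts of these in a difference cannot be told apart. The Tumour gate held no CD44 or CD122, so that Tumour cells may be of either phenotype. The libraries of a group are labelled as separate samples from 5 mice each. The number of sorted cells is not in the labels. In such bulk samples, more cells with a loop and more receptor RNA per cell cannot be told apart.

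As background, the CDR3 of the alpha chain is made where a variable (V) and a joining (J) gene segment are joined in the thymus. The first residues come from the V segment and the last from the J segment, and between them bases are trimmed or added at random. A very short loop is one in which the segment ends were trimmed far back, few bases were added, or the J segment is itself short. The CDR3 loops lie over the middle of the peptide held by the MHC molecule, and the alpha loop does so beside the beta loop. The lists give each CDR3 without the conserved cysteine at its start and the conserved aromatic residue at its end.

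The loops that carry most of the findings are shown here, 4 from each group, in the order of their mean read share in the group. The MP and Naive loops show how alike the short loops of different mice were, and the Tumour loops how unlike.
Tumour rank 1: GDTGKLT
Tumour rank 2: ASNNRIF
Tumour rank 3: ALSNNRIF
Tumour rank 4: APDAPR
MP rank 1: ALRGRALI
MP rank 2: ALYAQGLT
MP rank 3: ALSGGKLI
MP rank 4: ALAGAKLT
Naive rank 1: ASNTNKVV
Naive rank 2: ALNQGKLI
Naive rank 3: ALNYNVLY
Naive rank 4: APNAPR

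Each of the 4 MP loops begins with AL, and each holds 8 residues. From general knowledge of mouse J segments, not checked here against a reference sequence, the ends RALI, AQGLT, NTNKVV, NQGKLI, NYNVLY, NAPR and NNRIF are those of TRAJ15, TRAJ26, TRAJ34, TRAJ23, TRAJ21, TRAJ43 and TRAJ31. The ends KLT and KLI are shared by several J segments. No V segment is assigned here, since many of them give the same first residues.

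Library totals were 547665 to 943699 reads, and no list held a count below 2. A loop that a library does not list is called not listed, and folds against a group that lists a loop nowhere are bounds computed with 3 reads in each library of that group, which is 0.000318 to 0.000548% of a library's reads. No pair of libraries within a group agreed within counting noise. MP 1 and MP 5 listed 12401 and 13950 distinct CDR3s, against 2216 to 3392 in the other MP libraries, and results that turn on them are also given without them.

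Short loops took several times more of the reads in MP libraries than in Naive libraries, and the least in Tumour libraries. They took 0.775, 1.22, 0.968, 0.631 and 1.10% of the reads of Tumour 1 to 5. They took 6.05, 5.48, 6.19, 5.12 and 5.07% of the reads of MP 1 to 5. In Naive 1 to 5 they took 1.44, 1.35, 1.45, 1.36 and 1.50%. No 2 groups overlapped. The widest 95% Wilson interval of these shares, which covers counting error only, ran from 6.13 to 6.24% in MP 3, so that counting error was smaller than the spread between libraries.

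The share averaged 5.58 ± 0.517% in MP against 1.42 ± 0.0621% in Naive libraries (SD, n = 5 each), 3.93 times as much (difference 4.16 percentage points, exact two-sided permutation test, adjusted p = 0.00794). This is the smallest p that 5 against 5 libraries allow, and it was also found for both tumour comparisons. Tumour libraries held 0.939 ± 0.238%, a difference of -4.64 points from MP and of -0.480 points from Naive (adjusted p = 0.00794 each, exact permutation). With a limit of 7 residues the difference from MP was -0.398 points and lost its call (adjusted p = 0.0714, exact permutation). The smaller difference, Tumour against Naive, depended on where the limit was set and on rare loops. Without CDR3s of fewer than 10 reads it was -0.141 points (adjusted p = 0.262, exact permutation), with a limit of 9 residues -1.10 points (adjusted p = 0.206), and with a limit of 7 residues 0.0318 points (adjusted p = 0.960).

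**Figure D1:**
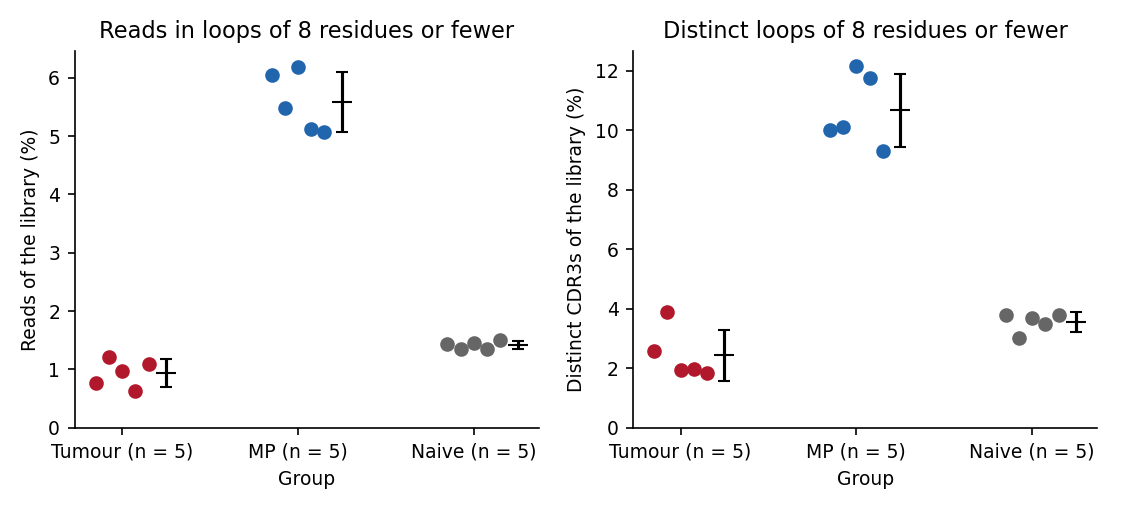
Share of each library's reads (left, %) and of its distinct CDR3s (right, %) in loops of 8 residues or fewer, by group; points are libraries, and the black mark with its bar is the mean ± SD of 5 libraries. MP libraries sit between 5.07 and 6.19% of reads, above all Naive libraries at 1.35 to 1.50% and all Tumour libraries at 0.631 to 1.22%.

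Counting each listed CDR3 once gave the same order of means. Short loops were 10.7 ± 1.22% of the distinct CDR3s in MP libraries and 3.55 ± 0.324% in Naive libraries (difference 7.11 points, adjusted p = 0.0119, exact permutation). They were 2.44 ± 0.853% in Tumour libraries, a difference of -8.22 points from MP (adjusted p = 0.0119) and of -1.11 points from Naive (adjusted p = 0.0476, exact permutation). Tumour 2, at 3.88%, lay above every Naive library, and the other tumours lay between 1.84 and 2.57%. Leaving out any 1 library other than Tumour 2 ended the call between Tumour and Naive (adjusted p of 0.0794 to 0.0952, exact permutation). The mean number of reads per loop was lower for short than for longer loops in every library. It was 83.6 ± 51.2 reads per short loop and 174 ± 112 per longer loop in MP, and 10.5 ± 3.42 and 26.3 ± 6.34 in Naive libraries (SD, n = 5). The medians had no such order: that of short loops was the higher in Tumour 1, Tumour 4, MP 2 and MP 3 (for example 43 against 36 reads in MP 3) and equal in Naive 1, 3 and 5.

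The difference between MP and Naive lay at 6 to 9 residues, and the shortest loops did not share it. Loops of 8 residues took 4.79 ± 0.557% of the reads in MP against 1.06 ± 0.0509% in Naive libraries. Loops of 7 residues took 0.521 ± 0.0906% against 0.201 ± 0.0352%, and those of 6 residues 0.218 ± 0.0434% against 0.101 ± 0.0160% (adjusted p = 0.0159 each, exact permutation, adjusted over 22 length classes). Just outside the limit, loops of 9 residues were also higher, at 12.1 ± 1.22% of MP against 5.00 ± 0.188% of Naive reads. Loops of 10 residues were lower, at 16.1 ± 1.08% against 21.2 ± 0.807% (adjusted p = 0.0159 each, exact permutation). At 2 to 5 residues no class passed the test. Loops of 3 residues came nearest, with 0.00230% of MP against 0.00917% of Naive reads (adjusted p = 0.0537, exact permutation), opposite in direction to those of 6 to 8.

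In Tumour libraries, loops of 8 residues took 0.549 ± 0.363% of reads. The difference was -4.24 points from MP (adjusted p = 0.0365, exact permutation over 23 classes) and -0.512 points from Naive (adjusted p = 0.0522). With any 1 library left out that from MP was -4.40 to -4.10 points with an adjusted p of 0.0522 to 0.0730, where the smallest raw p is 0.0159. Without Tumour 2 that from Naive was -0.631 points (adjusted p = 0.0437, exact permutation). Loops of 7 residues did not follow. They took 0.332 ± 0.290% of Tumour reads, against 0.521% in MP (adjusted p = 0.456) and 0.201% in Naive libraries (adjusted p = 0.639, exact permutation). Loops of 3, 4 and 5 residues were lower in Tumour than in Naive libraries (adjusted p = 0.0304 each, exact permutation), with no loop of 3 or 5 residues listed in a tumour.

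**Figure D2:**
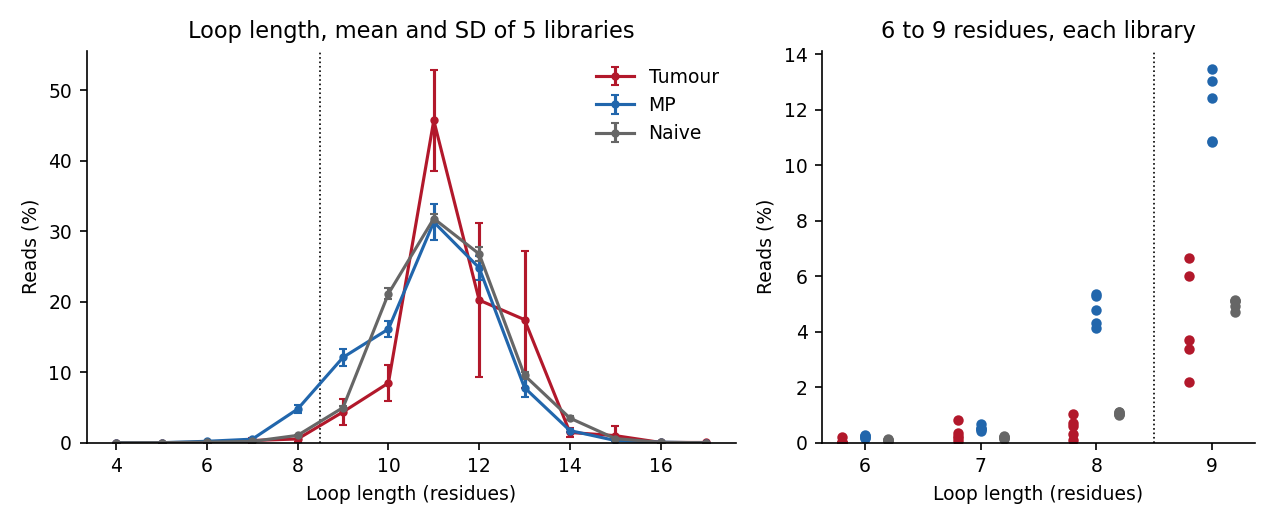
Share of reads (%) by loop length in residues. Left, mean ± SD of 5 libraries per group for 4 to 17 residues; right, each library for 6 to 9 residues, with the dotted line between 8 and 9 residues marking the limit. At 8 residues all MP libraries lie above all Naive libraries (means 4.79 and 1.06%), and at 9 residues likewise (12.1 and 5.00%).

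The start AL was more frequent among the short loops of MP than of Naive libraries, and by more than among longer loops. The start AL took 74.2, 70.7, 64.5, 65.2 and 69.6% of the short-loop reads of MP 1 to 5, and 26.6, 24.3, 27.4, 28.6 and 27.4% in Naive 1 to 5. It averaged 68.8 ± 4.01% in MP and 26.9 ± 1.59% in Naive libraries (adjusted p = 0.0147, exact permutation over 26 starts in both length classes). In loops of 9 residues or more it took 38.1 ± 2.30% in MP and 30.2 ± 1.72% in Naive libraries. The excess of short over longer loops was 30.8 points in MP and -3.38 points in Naive libraries, and these excesses differed by 34.2 points (adjusted p = 0.0193, exact permutation, a test added after the values were seen). Of all reads, short loops with AL took 3.84 ± 0.445% in MP and 0.381 ± 0.0311% in Naive libraries.

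The AL share was highest at the longest of the short lengths. At 8 residues AL took 73.8 ± 3.76% of the reads in MP against 30.4 ± 1.32% in Naive libraries. At 7 residues it took 40.4 ± 4.61% against 20.6 ± 2.10%, and at 6 residues 38.4 ± 12.7% against 8.40 ± 3.81%. At 9 residues the shares were 45.7 ± 3.04 and 22.3 ± 2.07%. At 10 residues they were 44.4 ± 1.32 and 32.0 ± 1.64%, and at 11 residues 53.6 ± 3.89 and 32.5 ± 1.04%. The higher AL share of MP was thus not particular to the short lengths, and the gap was widest at 8 residues. These are descriptions with no test.

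The other starts that passed the test were lower in MP as shares of the short-loop reads. AS took 4.43 ± 1.00% of short-loop reads in MP against 18.5 ± 1.26% in Naive libraries, AP 2.72% against 7.41%, AA 1.03% against 4.07%, AI 1.65% against 4.73%, and AV 1.14% against 3.91% (adjusted p = 0.0147 each, exact permutation). AE, AF and AY passed with the same p, with 0.103 to 0.368% in MP against Naive shares of 1.07 to 1.61%. AM, at 1.80 against 4.21%, passed with an adjusted p of 0.0258, and lost the call without MP 1, MP 5, Naive 2, Naive 3 or Naive 4 (adjusted p = 0.0529 at most, exact permutation). As shares of all reads several of these starts were close between the groups: AS took 0.248 ± 0.0655% in MP against 0.263 ± 0.0267% in Naive libraries, and AA 0.0559 ± 0.0361% and 0.0575 ± 0.00953%. Others had the higher mean in MP on that scale, AP with 0.151% against 0.105%, AI with 0.0912% against 0.0670%, and AM with 0.0984% against 0.0597%. Shares of all reads by start were not tested. In longer loops AV was also lower in MP, by more (-6.25 points, against -2.77 in short loops), while AP and AM were higher there, by 2.76 and 3.72 points (adjusted p = 0.0147 each, exact permutation). Counted by distinct loops, AS differed by 0.149 points (adjusted p = 0.766, exact permutation). The loop ASNTNKVV alone made up a mean of 16.2% of short-loop reads in Naive and 0.499% in MP libraries. This loop alone differed by more than the start AS did by short-loop reads. The other AS loops together thus had the higher mean in MP, and AS was not tested without ASNTNKVV.

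Within the AL loops, one shape made up much of the MP reads. Loops with AL at the start and glycine at position 4, counted from 1 at the first listed residue, took 42.2 ± 2.28% of short-loop reads in MP, with a range of 39.1 to 44.6%. They took 4.02 ± 3.31% in Tumour and 2.83 ± 0.684% in Naive libraries (SD, n = 5 each). In longer loops the same shape took 1.29 ± 1.26% in Tumour, 2.92 ± 0.616% in MP and 1.95 ± 0.120% in Naive libraries. The MP lists held 381 such short loops and the Naive lists 115. This shape was picked after the abundant loops had been seen, and it is given as a description with no test.

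The ends of short loops differed as well, as did those of longer loops. Of 14 ends tested in short loops between MP and Naive libraries, 5 were higher and 6 lower in MP (adjusted p = 0.0115 each, exact permutation over 32 ends in both length classes). Of 18 ends tested in longer loops, 6 were higher and 9 lower, so that the count is not particular to short loops. Among short loops KLT was the most abundant end in MP. It took 22.3, 17.7, 17.3, 21.5 and 21.0% of short-loop reads in MP 1 to 5, and 9.14, 7.61, 8.38, 6.21 and 7.55% in Naive 1 to 5. Its mean was 19.9 ± 2.32% in MP against 7.78 ± 1.09% in Naive libraries. ALI took 13.1, 9.56, 13.1, 13.0 and 10.3% in MP 1 to 5, and 0.513 to 1.01% in the Naive libraries, with no overlap. The loop ALRGRALI alone made up a mean of 9.67% of short-loop reads in MP, where ALI averaged 11.8%. The ALI difference was thus largely that of this loop, which is described again below, and ALI was not tested without it.

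GLT averaged 13.5 ± 3.08% in MP against 5.52 ± 0.539% in Naive libraries. The loop ALYAQGLT alone made up 8.21% of short-loop reads in MP and 0.0662% in Naive libraries. This loop alone differed by more than the end GLT did, so that the other GLT loops together had no higher mean in MP. GLT was not tested without it. YQR averaged 6.52 ± 0.587% against 0.721 ± 0.206%, and QLI 6.22 ± 0.881% against 3.32 ± 0.418%. As shares of all reads the largest ratio among these was that of ALI, with 0.663 ± 0.139% of MP against 0.00962 ± 0.00291% of Naive reads. The end QLI was higher in MP only among short loops: among longer loops it took 2.72% in MP and 4.33% in Naive libraries, and its excess of short over longer loops differed by 4.51 points (adjusted p = 0.0130, exact permutation). The excess also differed for ALI, by 11.8 points, and for KLT, by 10.2 points (adjusted p = 0.0130 each).

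Among the ends lower in MP, KVV and KYV went the opposite way in longer loops. KVV took 2.68, 1.58, 14.6, 5.14 and 3.01% of short-loop reads in MP 1 to 5, and 25.1, 25.8, 27.4, 26.7 and 27.7% in Naive 1 to 5. MP 3 lay apart from the other MP libraries and still below all Naive libraries. The loop ASNTNKVV alone made up a mean of 16.2% of short-loop reads in Naive and 0.499% in MP libraries. The KVV difference in short loops was thus largely that of this loop, and KVV was not tested without it. In loops of 9 residues or more KVV took 21.2 ± 2.80% in MP against 10.6 ± 1.41% in Naive libraries (adjusted p = 0.0115, exact permutation), and the 2 length classes differed by -31.7 points (adjusted p = 0.0130). RIF took 4.64 ± 1.82% of short-loop reads in MP against 14.9 ± 2.59% in Naive libraries, and APR 2.91 ± 0.870% against 8.27 ± 0.586%. KYV took 0.510% against 1.89%, and NFY 0.317% against 1.51%. In longer loops KYV took 4.40% in MP against 2.57% in Naive libraries (adjusted p = 0.0115), and its length classes differed by -3.21 points (adjusted p = 0.0130, exact permutation). As shares of all reads, which were not tested, the ends lower in MP were closer between the groups or had the higher mean in MP. RIF took 0.254 ± 0.0915% in MP against 0.211 ± 0.0324% in Naive libraries, APR 0.159 ± 0.0351% against 0.117 ± 0.00807%, KVV 0.314 ± 0.336% against 0.377 ± 0.0279%, KYV 0.0276% against 0.0267%, and NFY 0.0177% against 0.0214%. KLI (11.1 and 10.8%), VLY (7.42 and 7.28%) and KVI (4.89 and 3.20%) did not pass the test (adjusted p = 0.873, 0.873 and 0.289, exact permutation).

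Short and longer loops both carried more positive charge in MP. Net charge, counted as K and R less D and E, averaged 0.813 ± 0.0407 per short-loop read in MP against 0.688 ± 0.0289 in Naive libraries, and 0.603 ± 0.00900 against 0.533 ± 0.0160 per longer-loop read (adjusted p = 0.0119 each, exact permutation). Counted by distinct loops the difference was 0.0313 (adjusted p = 0.254, exact permutation). Short loops whose first residue is not alanine took 5.93 ± 1.10% of short-loop reads in MP and 10.6 ± 0.663% in Naive libraries (adjusted p = 0.0119, exact permutation). In longer loops the shares were 1.40 and 1.13%. A cysteine stood in loops with 0.700 ± 0.252% of short-loop reads in MP and 1.11 ± 0.386% in Naive libraries (adjusted p = 0.0556). Without MP 3 this difference was -0.514 points (adjusted p = 0.0190, exact permutation). In longer loops cysteine was lower in MP, at 0.248 ± 0.0373% against 0.500 ± 0.0482% (adjusted p = 0.0119, exact permutation).

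Loop by loop, the edgeR quasi-likelihood test was run on each CDR3 that reached 10 reads or more in at least 3 libraries of a pair of groups. Of the 2297 short loops listed in MP and the 3021 in Naive libraries, 293 entered the test. Among them 152 were higher and 53 lower in MP at a Benjamini-Hochberg adjusted p under 0.05. Over all 5954 CDR3s tested, 12.6% were called higher and 48.1% lower. The filter admits a loop that is abundant in 1 group alone, and such loops had to differ, so the counts describe the abundant short loops and support nothing further. The median log2 fold change was 4.66 over the 293 short loops and -3.35 over all CDR3s tested, and 2.43 and -2.17 with CDR3s not listed in one of the groups set at their bound. Together the 152 loops made up 3.91 ± 0.478% of reads in MP libraries and 0.0246 ± 0.00321% in Naive libraries. Of these, 103 begin with AL, 59 were listed in all 5 MP libraries, and 91 were listed in no Naive library. The 53 loops made up 0.0311 ± 0.0411% in MP and 0.504 ± 0.0316% in Naive libraries, and 43 of these were listed in no MP library.

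The count of loops higher in MP rested in part on MP 1 and MP 5. Without both, 56 short loops were higher and 70 lower of 165 tested, where 356 and 3436 of all 4867 CDR3s tested were higher and lower. The 56 still took 3.34 ± 0.461% of the reads of MP 2 to 4. With a minimum of 50 reads 59 were higher and 6 lower of 73 tested, where 25.1 and 48.6% of all CDR3s were. With at least 1 read in at least 2 libraries 447 were higher and 432 lower of 1417, where 7.97 and 51.7% of all were. Without Naive 3 the lower count was 31 of 262 (11.8%, where 42.5% of all were lower). Without any 1 library the higher count was 110 to 139, which was 43.1 to 51.3% of the short loops tested. Over all CDR3s tested the higher share was then 9.68 to 12.7%.

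**Figure D3:**
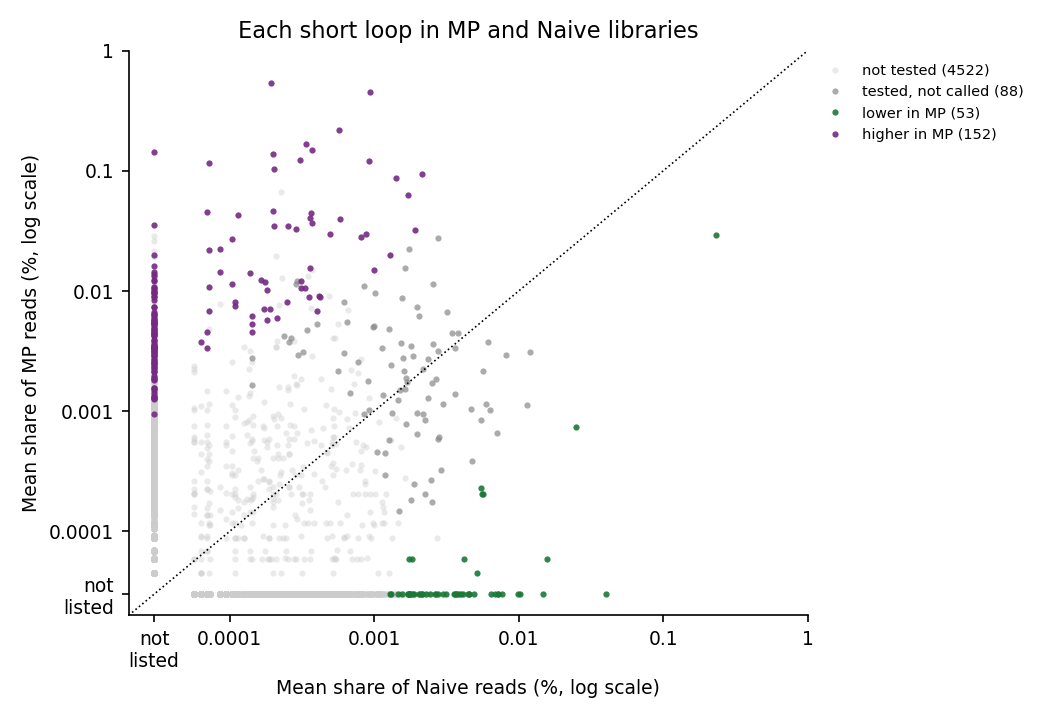
Mean share of reads (%, log scales) of each short loop in Naive (horizontal) and MP libraries (vertical), n = 5 each, coloured by the edgeR call. Loops not listed in a group are set on the edge marked "not listed", and the dotted line marks equal shares. Of the 293 loops tested, the 152 higher and the 53 lower in MP lie far from the line, many of them on the edges.

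ALRGRALI was the most abundant short loop of MP. It took 0.646, 0.415, 0.692, 0.556 and 0.408% of the reads of MP 1 to 5, 5695, 2829, 4631, 3193 and 2792 reads. In Naive 1, 4 and 5 it had 2 reads each, and it was not listed in Naive 2 and 3. Its mean was 0.543 ± 0.130% in MP against 0.000192% in Naive libraries (log2 fold change 11.31 ± 1.11 SE, edgeR adjusted p = 0.000455). It ranked 24th, 20th and 26th among all CDR3s of MP 1, 3 and 4, where it was the leading short loop.

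ALYAQGLT led the short loops of MP 2 and MP 5. It took 0.632, 0.502, 0.331, 0.365 and 0.455% of the reads of MP 1 to 5 and at most 0.00217% of a Naive library (log2 fold change 8.91 ± 1.14 SE, edgeR adjusted p = 0.000662). ALSGGKLI took 0.258, 0.300, 0.197, 0.120 and 0.226% of MP 1 to 5 and at most 0.00110% of a Naive library (log2 fold change 8.55, edgeR adjusted p = 0.000662). For both loops every MP library lay above every Naive library.

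The other MP loops of the leading 8 had the same form. ALAGAKLT averaged 0.168 ± 0.0642% of MP reads, ALRGGKLI 0.151 ± 0.0664%, ALSGTYQR 0.144 ± 0.0241%, ALAGNKLT 0.139 ± 0.0594% and ALRGAKLT 0.122 ± 0.0395%. Their means in Naive libraries were at most 0.000369%, and ALSGTYQR was listed in none, which makes it at least 287-fold higher in MP (edgeR adjusted p of 0.000662 to 0.000976 over the 5 loops). Of the 8 loops, 7 hold AL and glycine at position 4, ALYAQGLT being the exception. All 8 kept their call with any 1 library left out (edgeR adjusted p of 0.00355 at most). They were picked by their mean share in MP and entered the test through MP libraries. These calls thus describe the choice and support nothing further.

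ASNTNKVV was the leading short loop of every Naive library, and the only one among the 100 most abundant CDR3s there. It took 0.218, 0.221, 0.233, 0.215 and 0.267% of the reads of Naive 1 to 5, and 0.00839, 0.00910, 0.104, 0.0245 and 0.00190% of MP 1 to 5. MP 3 held the most of it in MP, less than any Naive library. Its mean was 0.0295 ± 0.0422% in MP against 0.231 ± 0.0214% in Naive libraries (log2 fold change -2.97 ± 0.97 SE, edgeR adjusted p = 0.0230). It was not listed in any tumour.

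ALNQGKLI took 0.0389, 0.0347, 0.0395, 0.0409 and 0.0489% of Naive 1 to 5 and was listed in no MP or Tumour library. It was at least 92.7-fold lower in MP (edgeR adjusted p = 0.000662) and at least 104-fold lower in Tumour libraries (adjusted p = 1.27e-05). ALSQGKLI and AESNNRIF were likewise listed in no MP library, at least 33.7-fold and 23.2-fold lower (edgeR adjusted p = 0.000662 and 0.00130). The loop of 6 residues APNAPR had 2 reads in all MP libraries together and 475 in Naive libraries, a ratio of reads per total of 0.00363 with a 95% exact counting interval of 0.000439 to 0.0132. ALNYNVLY averaged 0.000737% of MP against 0.0251 ± 0.00262% of Naive reads (edgeR adjusted p = 0.0163). These loops were picked by their share in Naive libraries, through which they entered the test, so that their calls support nothing further.

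A pair of leading Naive loops had lower means in MP without passing the test. ALIAQGLT averaged 0.00314 ± 0.00701% in MP and 0.0120 ± 0.00348% in Naive libraries (edgeR adjusted p = 0.407). All its 105 MP reads were in MP 3, and without MP 3 the adjusted p was 0.000742. ALNNNAPR averaged 0.00113% in MP, with 0.00541% at the highest, and 0.0115% in Naive libraries, with 0.00968% at the lowest (edgeR adjusted p = 0.0974), and without MP 5, which held 37 of its 39 MP reads, the adjusted p was 0.000768. In these fits without MP 3 or MP 5 the loop concerned entered the test through Naive libraries alone. The p-values of these fits thus support nothing further.

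The shortest loops that recurred in at least 3 libraries of a group held 4 or 5 residues and few reads. APGV was listed in 4 MP libraries with 124 reads in all, and in 1 Naive library with 8 reads. ATVV, ATIT and ATLI were each listed in 4 Naive libraries, with 76, 31 and 27 reads, and in MP with 6, 0 and 0 reads. APLLY had 49, 36 and 35 reads in MP 1, 4 and 5 and was not listed in MP 2, MP 3 or any Naive or Tumour library. It was at least 6.74-fold higher in MP than in Naive libraries (edgeR adjusted p = 0.0291), and lost the call without Naive 2 (adjusted p = 0.0503). APLLY entered the test through MP 1, 4 and 5 alone, so that it could only come out higher in MP. Without any of them it was not tested.

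Short loops recurred from mouse to mouse within MP and within Naive libraries, and fewer of them did so between tumours. Of the 2297 short loops listed in MP, 67 (2.92%) were listed in all 5 MP libraries, and these took 58.2 ± 3.08% of the short-loop reads there. Of the 3021 short loops of Naive libraries, 96 (3.18%) were listed in all 5 and took 43.8 ± 2.78% of the reads. Of the 189 short loops of tumours none was listed in more than 3 tumours. There 174 (92.1%) were listed in 1 tumour, and they took 71.8 ± 17.6% of the short-loop reads. No short loop was listed in all 15 libraries.

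Set against the longer loops of the same libraries, short loops were less shared by reads. In Tumour libraries 28.2 ± 17.6% of short-loop reads and 65.1 ± 8.49% of longer-loop reads lay in CDR3s that another tumour listed, with the short class lower in 5 of 5 libraries. The short-loop shares ran from 3.28% in Tumour 5 to 44.6% in Tumour 3. In Naive libraries the shares were 72.1 ± 1.45 and 92.0 ± 0.295%, again lower in 5 of 5. In MP libraries they were 85.0 ± 2.76 and 88.0 ± 1.18%, and the short class was higher in 2 of 5. By distinct loops, MP differed from the other groups. In MP libraries 61.4 ± 13.4% of short and 51.3 ± 13.5% of longer loops were listed by another MP library, higher for short loops in 5 of 5 libraries. In Naive libraries the shares were 49.0 and 59.6%, and in Tumour libraries 18.7 and 32.0%, lower for short loops in 5 of 5 libraries of each. These values carry no test, since each library enters the values of the others. A CDR3 with more reads is more likely to be listed again, and the part of read numbers in these shares was not tested.

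**Figure D4:**
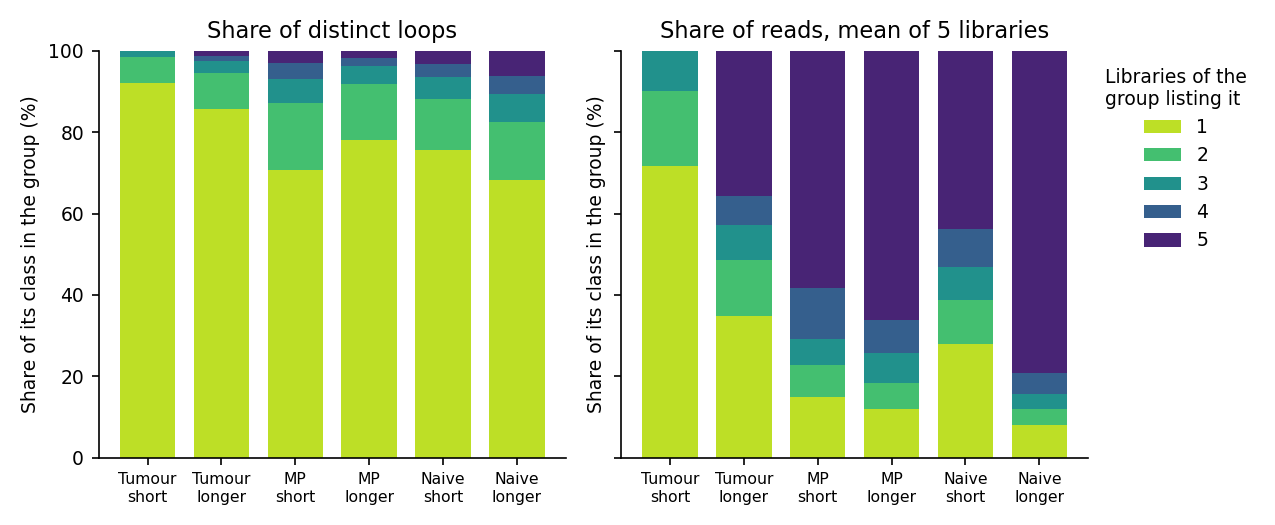
Share (%) of the distinct loops (left) and of the reads (right, mean of 5 libraries) of short and longer CDR3s by the number of libraries of the group that list the CDR3, from 1 (light) to 5 (dark). Short loops listed in all 5 libraries took 58.2% of the short-loop reads in MP and 43.8% in Naive libraries, and no short loop was listed in more than 3 tumours.

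The loops listed in all 5 libraries of a group were mostly of 8 residues, 59 of 67 in MP and 87 of 96 in Naive libraries. In MP 48 of the 67 (71.6%) begin with AL, against 1096 of 2230 (49.1%) of those listed in fewer MP libraries. In Naive libraries 50 of the 96 (52.1%) begin with AL, against 643 of 2925 (22.0%). In longer loops the shares were 33.9 and 31.0% in MP, and 29.2 and 26.9% in Naive libraries.

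MP and Naive libraries listed 503 short loops in common, 21.9% of those of MP and 16.7% of those of Naive libraries. For longer loops the shares were 44.5 and 14.5%. The short loops of MP that a Naive library also listed took 70.8 ± 2.64% of the short-loop reads in MP, against 86.7 ± 1.17% for longer loops, lower in 5 of 5 libraries. The Morisita-Horn index, which is 1 for equal and 0 for disjoint read shares, averaged 0.854 ± 0.0701 over the 10 pairs of MP libraries and 0.965 ± 0.0154 over the 10 pairs of Naive libraries, against 0.0388 ± 0.0342 over the 25 pairs of an MP and a Naive library. Between tumours it averaged 0.0610 ± 0.0907. For longer loops the index was 0.220 between tumours, 0.916 between MP libraries, 0.973 between Naive libraries and 0.0566 ± 0.00848 between an MP and a Naive library, so that MP and Naive libraries were little alike in both length classes. Pairs share libraries and were not tested.

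In tumours a few short loops, mostly different ones in each mouse, took most of the short-loop reads. The 10 leading short loops took 66.2 to 99.8% of the short-loop reads of a tumour, against 38.7 to 45.0% in an MP library and 24.9 to 31.1% in a Naive library. A tumour listed only 18 to 103 short loops, an MP library 269 to 1297 and a Naive library 449 to 1118, so that 10 loops are a larger part of a tumour's list. Longer loops were also least even in tumours, with a mean Shannon entropy of 6.44 bits against 8.75 in MP and 11.2 in Naive libraries. GDTGKLT had 7529 reads in Tumour 5, 0.798% of its reads and 72.5% of its short-loop reads, and was listed in no other library. APDAPR, with 1844 reads, was also listed in Tumour 5 alone, ALEQGKLT with 1326 reads in Tumour 2 alone, and AMKIFAPR with 1027 reads in Tumour 3 alone. The loops of 1 tumour have no replicate within the group. VPPAQGLT was listed in Tumour 1 and Tumour 2 only, with 0.149 and 0.0458% of reads.

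ASNNRIF and ALSNNRIF share their last 6 residues and were both most abundant in Tumour 3. ASNNRIF took 0.358% of Tumour 3 and 0.0823% of Tumour 4, and was listed in 2 MP and 4 Naive libraries at up to 0.00522%. The difference from Naive did not pass the test (log2 fold change 4.91 ± 2.62 SE, edgeR adjusted p = 0.0993). ALSNNRIF took 0.257% of Tumour 3 and was listed in no other tumour, in 3 MP libraries and in all 5 Naive libraries (edgeR adjusted p = 0.313 against Naive). Without Tumour 3 no tumour lists it, and it was then at least 7.95-fold lower in Tumour than in MP and at least 22.2-fold lower than in Naive libraries (edgeR adjusted p = 0.0286 and 3.93e-05). ALSNNRIF then entered the test through MP or Naive libraries alone. It could thus only come out lower, and these 2 calls support nothing further.

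Only 3 short loops were listed in 3 tumours. AVSHYQLI took 0.0599, 0.0243 and 0.0208% of Tumour 1, 2 and 4 and was listed in no MP or Naive library. Against MP it was at least 47.9-fold higher, and against Naive libraries at least 41.8-fold (edgeR adjusted p = 0.0183 and 0.0174). It entered both tests through these 3 tumours alone, so that it could only come out higher, and its calls support nothing further. Without any of the 3 it was not tested, and without MP 1 and MP 5 together it lost the call against MP (edgeR adjusted p = 0.0774). GGNYKYV took 0.0123, 0.0769 and 0.103% of the same 3 tumours, and averaged 0.0385 ± 0.0482% in Tumour against 0.00143% in MP and 0.000677% in Naive libraries. It was higher than in Naive libraries (log2 fold change 5.79 ± 2.42 SE, edgeR adjusted p = 0.0427), and lost that call without Tumour 2, Tumour 4 or any of Naive 1 to 4 (adjusted p = 0.0876 at most). ALRGGKLI, one of the leading MP loops, took 0.0313, 0.0722 and 0.0299% of Tumour 2, 3 and 5. It was higher in Tumour than in Naive libraries (log2 fold change 6.09 ± 2.11 SE, edgeR adjusted p = 0.0193) and did not differ from MP past the threshold (-2.50 ± 1.89 SE, adjusted p = 0.249). With at most 5 reads in a Naive library, ALRGGKLI entered the test against Naive through these 3 tumours alone. It could thus only come out higher there, and that call supports nothing further.

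The other leading MP loops were lower in tumours. They were picked by their share in MP libraries, through which they entered the test, so that their calls support nothing further. ALRGRALI had 8 reads in Tumour 1 and 30 in Tumour 2, a mean of 0.000985% against 0.543% in MP (log2 fold change -9.08 ± 2.34 SE, edgeR adjusted p = 0.0130). ALYAQGLT had 103 reads in Tumour 2 alone (edgeR adjusted p = 0.0198), and ALSGGKLI 75 and 16 reads in Tumour 1 and 2 (adjusted p = 0.0200). ALSGTYQR had 93 reads in Tumour 2 alone (edgeR adjusted p = 0.0438), a call that was lost when any library other than Tumour 2 was left out (adjusted p = 0.0759 at most). Without MP 1 and MP 5 together ALRGRALI kept its call (edgeR adjusted p = 0.0217), while ALYAQGLT, ALSGGKLI and ALSGTYQR lost theirs (adjusted p = 0.0783, 0.0757 and 0.123), with log2 fold changes of -7.23, -6.40 and -5.77.

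Over all short loops tested between Tumour and MP, 1 of 195 was higher, AVSHYQLI, and 171 were lower in Tumour, where 7.68% and 66.0% of all 1666 CDR3s tested were higher and lower. Between Tumour and Naive, 3 of 100 were higher and 81 lower, where 3.38% and 86.7% of all 4671 were. Of the lower loops, 149 and 78 were listed in no tumour. Tumour libraries listed 18 to 103 short loops each, against 269 to 1297 in an MP and 449 to 1118 in a Naive library. With CDR3s not listed in one of the groups set at their bound, which were 76.9% of the short loops tested against MP and 79.0% of those against Naive, the median log2 fold change was -3.76 over short loops and -3.76 over all against MP, and -2.70 and -3.15 against Naive. The fitted medians, which are no bounds, were -7.87 and -7.57 against MP and -6.98 and -7.42 against Naive. With TMM scaling the fitted medians over all moved by -1.49 and -1.05.

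By ends and starts, the short loops of tumours varied widely. AL took 17.4, 25.1, 34.0, 27.3 and 8.47% of the short-loop reads of Tumour 1 to 5, a mean of 22.5 ± 9.81%. This lay below MP (adjusted p = 0.0340, exact permutation) and did not differ from Naive libraries past the threshold (adjusted p = 0.620). AG and AN were also lower in Tumour than in MP libraries, at 0.0295 and 0.0126% against 1.12 and 2.26% (adjusted p = 0.0340 each, exact permutation). With any 1 library left out the AL difference was -49.3 to -42.9 points and that of AN -2.52 to -2.02 points. Their adjusted p was then 0.0575 to 0.0767, where the smallest raw p of 4 against 5 libraries is 0.0159 (exact permutation), and AG passed in none of the 9 fits that tested it. Against Naive libraries AA, AE, AF, AG, AN and AY were lower, at 0.0126 to 0.475% against 1.07 to 4.07% (adjusted p = 0.0238 each, exact permutation), and without Tumour 5, or without Naive 4, none of the 6 passed.

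The end ALI averaged 0.0908 ± 0.139% of short-loop reads in Tumour against 11.8 ± 1.73% in MP, and YQR 0.284 ± 0.636% against 6.52% (adjusted p = 0.0351 each, exact permutation). KLI averaged 6.81 ± 2.56% in Tumour against 10.8% in Naive libraries, and KVV 0.682 ± 1.53% against 26.5% (adjusted p = 0.0351 each, exact permutation). KVV was listed among the short loops of 1 tumour, Tumour 2, with 3.41%. The ALI and KVV differences were again largely those of ALRGRALI, with 9.67% of MP, and ASNTNKVV, with 16.2% of Naive short-loop reads. With 1 library left out the differences were -12.3 to -11.4 points for ALI, -6.52 to -6.07 for YQR, -4.73 to -3.14 for KLI and -26.5 to -25.6 for KVV. The 4 calls were lost in 8 of the 10 fits, those without Tumour 1 or Tumour 5 being the exceptions, with adjusted p of 0.0726 at most from a smallest raw p of 0.0159 (exact permutation). Short loops without alanine at the first position took 29.2, 33.0, 0.0494, 17.9 and 73.2% of the short-loop reads of Tumour 1 to 5, a mean of 30.7 ± 27.0% against 5.93% in MP (adjusted p = 0.0952) and 10.6% in Naive libraries (adjusted p = 0.254, exact permutation). Without Tumour 3 both differences passed (32.4 and 27.8 points, adjusted p = 0.0476 each, exact permutation).

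Some short loops differ little from a much more abundant CDR3 of their library. Of the short loops of a library, 0 to 1.94% could be made by removing 1 residue from a longer CDR3 with at least 100 times as many reads. Loops that lay 1 substitution from another CDR3 at least 100 times as abundant made up 17.5 to 72.2% of the short loops in Tumour libraries, against 8.02 to 17.8% in an MP and 1.70 to 2.23% in a Naive library. Their part in the counts of distinct loops was tested by folding them into the abundant CDR3, after which Tumour libraries differed from Naive by -0.923 points (adjusted p = 0.119, exact permutation).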

How the data were processed

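The deposited values are read counts per CDR3 peptide, 1 list per library, as the authors deposited them. The counts were checked to be whole numbers of at least 2. Per the labels' protocols, RNA of the sorted cells was extracted with Trizol and sent to the company iRepertoire, whose method, as quoted there, is arm-PCR, a multiplex RT-PCR. Aligner, CDR3 caller, error filter and molecular identifiers: not given in the sources used here. PCR reads with no molecular identifier are not independent, and intervals and floors cover counting error only.

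Loops of at most 8 residues were taken from the lists. Values per library (total 547665 to 943699 reads) were compared between groups of 5 by exact permutation over 252 splits, with 2 times the smaller tail as the two-sided p (0.00794 at the least) and Benjamini-Hochberg adjustment over all length classes, ends, starts or measures of a comparison, longer loops included. Ends are the last 3 residues and starts the first 2, and those with at least 1% of the reads of their length class in a group were tested. Calls per CDR3 used edgeR 4.0.16 (R 4.3.3, limma 3.58.1), with robust quasi-likelihood, total reads as library size, a minimum of 10 reads in 3 libraries of the pair, and an adjusted p under 0.05 over all CDR3s tested. DESeq2 1.42.0, TMM, other filters, limits of 7 and 9 residues and single libraries left out were alternatives. The edgeR and permutation steps were tested on simulated data.

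The 8 loops with the highest mean share in each group were named, with the 5 most abundant called loops per comparison and direction, up to 5 of the shortest recurrent loops, and each end and start past the threshold, or the 5 largest each way if over 10 passed. The members and lists were chosen with earlier results of these data known. Fits without MP 1 and MP 5 together, single libraries left out for lengths, ends, starts and composition, and the tests of short against longer loops were added after values were seen. The labels do not say that libraries of the same number share a mouse, and the libraries were taken as unpaired. Where nothing says that samples are separate extractions, p-values measure the spread between these samples. Python 3.11.15, numpy 2.4.6, scipy 1.17.1, pandas 2.3.3 and matplotlib 3.10.9 were used.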

Additional observations from a re-analysis of the deposited data

Results flagged for a closer look

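In 22 of 120 groups of 5 libraries checked, the highest or lowest library lay far from the other 4. Chance gives about 1 in 20 groups, and groups in which 4 libraries are at 0 are always picked out. The value of that library is given first and the range of the other 4 after it.

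Of these, 18 are in tumours. In Tumour 5, loops of 6 residues took 0.196% of reads, against 0 to 0.0199% in the other tumours. GDTGKLT took 0.798% and APDAPR 0.195% of the reads of Tumour 5 and were listed in no other tumour. In Tumour 3, ASNNRIF took 0.358% of reads against 0 to 0.0823%, and ALSNNRIF with 0.257% and AMKIFAPR with 0.164% were not listed in the others. Short-loop reads of Tumour 3 with the end RIF were 63.7% against 0 to 13.2%, and those with the start AM 17.2% against 0 to 0.0526%. In Tumour 4 the end KYV took 29.3% of short-loop reads against 0 to 7.76%, and the start AE 0.116% against 0. In Tumour 1 the end KIT took 4.08% against 0.

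Tumour 2, which listed 103 short loops against 18 to 38 in the other tumours, had ALEQGKLT with 0.170% of its reads, a loop not listed in the others. Loops with a cysteine took 10.3% of its short-loop reads, the end KVV 3.41%, the end YQR 1.42% and the starts AG 0.147%, AN 0.0632% and AY 1.36%, each against 0 in the other 4 tumours.

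In MP 3 the end GLT took 8.18% of short-loop reads against 13.9 to 15.9% in the other MP libraries, and the end KVV 14.6% against 1.58 to 5.14%. In Naive 2 loops with a cysteine took 1.78% of short-loop reads against 0.840 to 1.02%, and ALIAQGLT 0.00584% of reads against 0.0130 to 0.0140%.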

How the results depend on the processing

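The MP excess over Naive libraries in reads and in distinct short loops kept its direction and its call under every alternative run except the library number as a block, where an exact permutation of 5 pairs cannot go below p = 0.0625. With that replicate block the differences in read share were 4.16 points for MP over Naive, -4.64 for Tumour over MP and -0.480 for Tumour over Naive (exact sign-flip permutation, adjusted p = 0.0625 each), and those in distinct loops 7.11 (adjusted p = 0.0938), -8.22 (0.0938) and -1.11 points (0.125). Whether numbers pair MP with Naive libraries could not be decided. The deviations of same-numbered libraries correlated at 0.00339 to 0.0367 over CDR3s, none of 5 over 0.1, and 3 of 5 MP libraries correlated best with their own number. MP and Naive libraries were little alike in any pair, so that weak correlations cannot exclude a shared mouse. In the block fits Tumour over MP had 0 short loops higher and 34 lower of 195 (17.4%, where 15.9% of all CDR3s were lower). Tumour over Naive then had 1 higher and 90 lower of 100, where 2.68 and 91.2% of all CDR3s were. The log2 fold change of ALSNNRIF was then -5.34 for Tumour over MP and -7.56 for Tumour over Naive, and that of ASNNRIF -0.00651 for Tumour over Naive. The cause of these was not tested.

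The read share for Tumour over Naive was -0.141 points without CDR3s of fewer than 10 reads, 0.0318 with a limit of 7 residues and -1.10 with a limit of 9. Tumour over MP at a limit of 7 was -0.398 points and lost its call (adjusted p = 0.0714, exact permutation). The share of distinct loops for Tumour over Naive was -0.501 without CDR3s of fewer than 10 reads, -0.429 with a limit of 7 and -0.923 with possible reading errors folded. Without 1 library it ranged from -1.47 to -0.963. Loops of 8 residues then ranged from -4.40 to -4.10 for Tumour over MP and from -0.631 to -0.398 for Tumour over Naive.

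Weighted by distinct CDR3, the end KLI for Tumour over Naive was 1.63 points, the start AS for MP over Naive 0.149, and the starts past the threshold were 2 higher for MP over Naive, 0 lower for Tumour over MP and 2 lower for Tumour over Naive. In that weighting net charge differed by 0.0313 (MP over Naive), 0.0677 (Tumour over MP) and 0.0990 (Tumour over Naive), and cysteine by 0.533, -0.967 and -0.434 points. With the last 2 residues as the end, 3 were higher for MP over Naive and 1 lower for Tumour over Naive.

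Without 1 library, ends numbered 0 to 1 higher and 0 to 3 lower for Tumour over MP, and 0 to 3 lower for Tumour over Naive. Starts numbered 1 to 2 higher for MP over Naive, 0 lower for Tumour over MP in each fit, and 0 to 7 lower for Tumour over Naive. Net charge for Tumour over MP ranged from -0.404 to -0.137. A first residue other than A ranged from 14.1 to 32.4 points for Tumour over MP and from 9.47 to 27.8 for Tumour over Naive. Cysteine ranged from -0.700 to 1.87 for Tumour over MP, from -1.11 to 1.46 for Tumour over Naive, each lowest without Tumour 2, and from -0.514 to -0.238 for MP over Naive. ALSNNRIF ranged from -7.47 to 5.06 against MP and from -8.84 to 2.97 against Naive, each lowest without Tumour 3, where no tumour lists it and the fitted value is no bound.

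Counts of calls moved with the filter and the libraries. With at least 50 reads, 59 short loops were higher and 6 lower of 73 for MP over Naive, where 25.1 and 48.6% of all CDR3s were. For Tumour over MP 61 of 68 (89.7%) were lower, where 60.8% of all were. For Tumour over Naive 8 of 12 (66.7%) were lower, where 79.7% of all were. With at least 1 read in at least 2 libraries, MP over Naive had 447 higher and 432 lower of 1417, where 7.97 and 51.7% of all were. Tumour over MP had 8 and 598 of 703 (1.14 and 85.1%, where 7.47 and 66.9% of all were). Tumour over Naive had 5 and 700 of 774 (0.646 and 90.4%, where 1.61 and 90.3% of all were). Without MP 1 and MP 5 together, 56 of 165 (33.9%) were higher for MP over Naive, where 7.31% of all CDR3s were. Tumour over MP then had 0 higher and 44 lower of 62 (71.0%), where 10.6% of all CDR3s were higher and 35.0% lower. Without 1 library, MP over Naive had 31 to 62 lower, Tumour over MP 0 to 1 higher and 111 to 178 lower, and Tumour over Naive 0 to 3 higher and 50 to 86 lower. The lower shares of the short loops tested were 11.8 to 26.8, 85.0 to 95.2 and 71.4 to 88.7% in these 3 comparisons. Over all CDR3s tested they were 42.5 to 57.3, 54.1 to 78.9 and 84.3 to 91.8%. TMM and DESeq2 moved no count by over 1.5 times. Tumour libraries list as few as 18 short loops, which limits every value within them.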

Other observations

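The evenness of short loops differed from that of longer loops within the same libraries. Shannon entropy was 3.14 ± 1.42 bits over the read shares of short and 6.44 ± 0.614 bits over longer loops in Tumour libraries, 6.79 ± 0.525 and 8.75 ± 0.510 bits in MP, and a lowest value of 7.30 and a highest of 8.54 bits over the short loops of Naive libraries against 11.1 to 11.3 bits over the longer ones. Classes of fewer distinct CDR3s have a lower possible entropy, and no test was made.

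Of the 189 short loops listed in tumours, 77 (40.7%) were also listed in MP and 74 (39.2%) in Naive libraries, 55 were listed in all 3 groups, and 93 (49.2%) were listed in tumours only. For the longer loops of tumours the shares were 25.2, 34.8 and 59.5%. Among the 100 most abundant CDR3s of a library, 0 to 2 were short in a tumour, 3 to 8 in an MP library and 1 in each Naive library.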
